A study of Mus musculus with 48 samples.

Results

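The nuclear-encoded subunits of the mitochondrial respiratory chain and ATP synthase were examined in RNA-seq of mouse melanomas. The family was defined by name, as the protein-coding genes of GENCODE vM21 whose symbols begin with Nduf followed by a, b, c, s or v and a digit, with Uqcr, with Cox and a digit from 4 to 8, or with Atp5. This gave 81 of the 55450 genes in the count table, which is 0.369% of its 21951 protein-coding genes. By name, 37 belong to complex I, 8 to complex III, 18 to complex IV and 18 to complex V. The family was chosen because many members were higher in untreated tumors of iNOS KO mice than of WT mice, so that contrast is given below as a description without a test.

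The respiratory chain is a set of large protein complexes in the inner mitochondrial membrane. Complex I takes electrons from NADH, complex III passes them from ubiquinol to cytochrome c, complex IV hands them to oxygen, and complex V, the ATP synthase, uses the resulting proton gradient to make ATP. Most subunits are encoded in the nucleus and imported, while a small number of hydrophobic ones are encoded by mitochondrial DNA. Tumor cells use this system alongside glycolysis, and transcription factors such as NRF1, the ETS protein GABP and YY1 are known to bind near the start sites of many of its genes.

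The tumors were grown from B16-D5 cells, a subclone of a mouse melanoma line, placed under the skin of the flank of C57BL/6J (WT) mice or mice lacking iNOS (iNOS KO) 8 days before therapy began. Mice were 4 weeks old on arrival and were housed for 2 weeks before use. The first experiment held 30 tumors of WT mice, either untreated at 0 hours, or untreated, given IgG or given anti-PD-1 and collected at 6 hours, day 1 or day 3. The second held 18 tumors at day 7 from WT and iNOS KO mice, each untreated, given IgG or given anti-PD-1. Antibody was given at 250 µg in 200 µL of PBS on days 0 and 3, so tumors collected at 6 hours or on day 1 could have had the day 0 dose only, and whether day 3 tumors were taken before or after the later dose is not given in the sources used here. Each of the 16 conditions had 3 tumors, 1 library each. In the KO groups the host lacked iNOS, whereas the implanted tumor cells were the same line in every group. Conditions were taken from the sample titles. The treatment field matched the title in 14 of 48 samples, and the genotype field read WT for all 48 although 9 titles gave KO. The IgG, untreated and 0-hour groups served as controls for anti-PD-1, for IgG and for time.

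Counts of the targeted gene, Nos2, did not separate the genotypes. It had 1.15 to 5.92 counts per 1000000 counts (CPM) in the 9 tumors of iNOS KO mice and 1.40 to 7.28 CPM in the 9 day-7 tumors of WT mice, and the ranges overlapped. The tumor cells carry their own Nos2, and which part of the gene is deleted in the host is not given in the sources used here, so this count does not check the genotype. Library depth was 25574203 to 47687872 counts in the first experiment and 11625862 to 40959309 in the second, at which 3 counts were worth 0.0688 to 0.197 CPM. Olfactory, vomeronasal and taste receptor genes (1504) served as a measure of background. Their sum was 16.3 to 320 CPM in the first experiment and 12.3 to 233 CPM in 15 of the 18 day-7 libraries. Replicates 3 and 4 of WT anti-PD-1 held 3715 and 1308 CPM and replicate 1 of untreated iNOS KO held 917 CPM. The family's median is given with and without these 3 high-background libraries for genotype contrasts that use them, WT anti-PD-1 against IgG and the interaction. Most other values, such as those by complex, by length, of other lists and against untreated tumors of the same genotype, include these libraries.

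The upstream regions of the family were compared first, because shared sites are one property that the choice by name did not use. RefSeq promoter windows (GRCm38.p6, 250 bases before to 50 after the gene start) were at hand for 63 of the 81 members. The NRF1 motif was GCGCA followed by any base and GCGC. It was found on either strand in 15 of the 63 members (23.8%) and in 7.44% of all 16522 genes with a window. A gene counted if any of its windows matched. The ETS motif CCGGAAG was found in 14 (22.2%, against 13.4%), and the YY1 motif AAGATGGCG in 7 (11.1%, against 2.25%). At least 1 of these motifs was present in 31 members (49.2%), against 20.6% of all genes with a window. A letter match is a description of the sequence, and not a measured binding site.

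Some windows show the range of these promoters, from a window with a pair of NRF1 matches to a window with none, and they belong to members whose values are described below. Each is written 5′ to 3′ on the strand of its gene in lower case, with motif matches in capitals. The Uqcrc1 window, with its pair of NRF1 matches, is chr9:108936398-108936697 on the + strand. That of Ndufs6, with an NRF1 and a YY1 match, is chr13:73328433-73328732 on the - strand, that of Ndufb6, with an ETS match on the opposite strand, is chr4:40279372-40279671 on the - strand, and that of Cox7b, with none of these motifs, is chrX:106015450-106015749 on the + strand.
Uqcrc1: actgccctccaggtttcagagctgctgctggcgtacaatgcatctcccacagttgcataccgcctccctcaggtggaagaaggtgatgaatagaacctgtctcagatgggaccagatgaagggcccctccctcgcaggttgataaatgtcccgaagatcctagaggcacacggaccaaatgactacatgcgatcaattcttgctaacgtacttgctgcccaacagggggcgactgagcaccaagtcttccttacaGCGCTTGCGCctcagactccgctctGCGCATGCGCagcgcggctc
Ndufs6: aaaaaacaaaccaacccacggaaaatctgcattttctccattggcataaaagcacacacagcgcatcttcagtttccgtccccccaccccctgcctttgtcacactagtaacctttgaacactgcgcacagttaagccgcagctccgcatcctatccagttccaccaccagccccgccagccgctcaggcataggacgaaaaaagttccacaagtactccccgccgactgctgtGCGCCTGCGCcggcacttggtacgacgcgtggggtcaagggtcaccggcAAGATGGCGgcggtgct
Ndufb6: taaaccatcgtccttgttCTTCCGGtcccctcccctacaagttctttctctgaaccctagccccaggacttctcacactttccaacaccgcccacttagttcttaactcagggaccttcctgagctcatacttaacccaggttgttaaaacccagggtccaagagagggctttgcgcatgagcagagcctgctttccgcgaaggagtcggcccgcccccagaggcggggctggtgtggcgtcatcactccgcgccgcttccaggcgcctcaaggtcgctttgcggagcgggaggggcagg
Cox7b: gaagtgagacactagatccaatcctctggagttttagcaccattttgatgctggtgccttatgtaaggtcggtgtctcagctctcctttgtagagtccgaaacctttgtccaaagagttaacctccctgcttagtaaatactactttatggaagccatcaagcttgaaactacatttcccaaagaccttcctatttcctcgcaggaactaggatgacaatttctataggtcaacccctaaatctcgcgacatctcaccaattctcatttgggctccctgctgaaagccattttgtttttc

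In IgG tumors of day 7, which did not choose the family, the median log2 fold change of iNOS KO over WT was 0.41 for the 31 members with a match and 0.46 for the 31 tested members with a window but no match. In untreated tumors the medians were 0.61 and 0.66. Members with and without a match thus had like medians, and the difference between them was not tested.

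Together the family made up 0.518 to 0.977% of the counts of a library in the first experiment and 0.606 to 1.38% in the second. Divided by transcript length, the most abundant members were Cox6c, a small subunit of complex IV, with a mean of 527 CPM per kb over the 30 tumors of the first experiment and 708 CPM per kb over the 18 of the second, and Atp5b, the catalytic β subunit of the ATP synthase, with 502 and 489 CPM per kb. The next highest was Atp5g3, a c-ring gene, in the first experiment (429 CPM per kb) and Cox8a, a small subunit of complex IV, in the second (477 CPM per kb). At the other end were isoforms known from testis. Cox7b2 had no counts in 25 of 30 and 14 of 18 libraries, and Cox8c in 22 and 16. The gene model Atp5o_short had 0 counts in all 48. After the filter on low counts, 79 members were tested in the first experiment and 78 in the second. Most transcripts of the family are short, with a median of 727 bases (360 to 4715) against 2370 for all protein-coding genes. In bulk tumor RNA, fewer cells of a type and less RNA per cell cannot be told apart.

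At day 7 the summed level of the family was highest in the untreated iNOS KO tumors. These had 13120, 12924 and 11250 CPM (mean 12432 ± 1028, SD, n = 3), and the untreated WT tumors had 7442, 8704 and 8616 CPM (8254 ± 704). After IgG the iNOS KO tumors had 8724, 9297 and 8699 CPM (8907 ± 338) and the WT tumors 7008, 6982 and 6103 CPM (6698 ± 516). After anti-PD-1 the values were 8266, 8261 and 11755 CPM in iNOS KO (9427 ± 2015) and 7587, 7969 and 9023 CPM in WT (8193 ± 744). The genotypes did not overlap in the untreated and IgG tumors and overlapped after anti-PD-1, where replicate 3 of iNOS KO lay far above its 2 companions. The 30 WT tumors of the first experiment, normalized on their own, ranged from 5336 to 10740 CPM with a median of 7748.

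**Figure D1:**
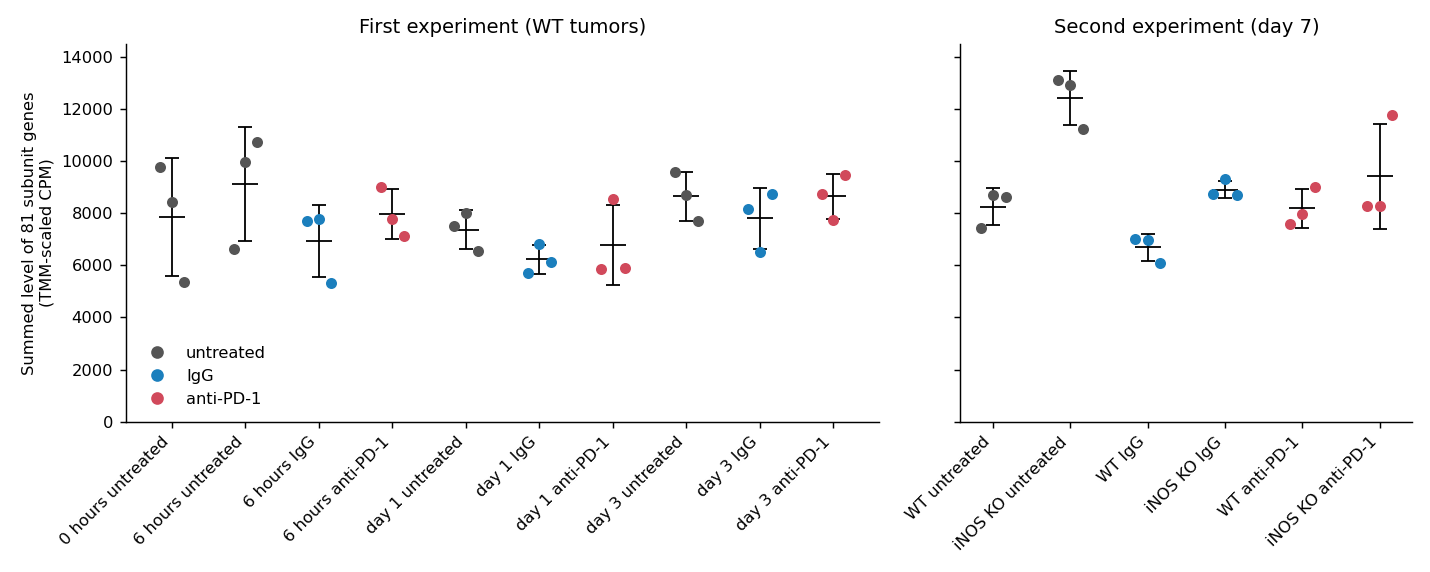
Summed level of the family in each tumor, in CPM normalized within each experiment, by condition. Points are tumors and bars the mean ± SD of 3. At day 7 the 3 untreated iNOS KO tumors (11250 to 13120 CPM) lie above every untreated WT tumor (7442 to 8704 CPM), and 1 anti-PD-1 tumor of iNOS KO reaches 11755 CPM.

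Cytosolic ribosomal protein genes, another family of short and abundant transcripts (median 780 bases), were high in the same tumors. Their sum was 38409, 31823 and 30630 CPM in the untreated iNOS KO tumors and 30330 CPM in replicate 3 of anti-PD-1 iNOS KO, against 18143 to 26622 CPM in the other day-7 tumors. In the untreated contrast, again as a description, their median log2 fold change was 0.82, with 86 of 99 higher. Mitochondrial ribosomal proteins stood at 0.39 (65 of 77 higher), complex II and other chain components outside the name rule at 0.58 (6 of 7), the genes of mitochondrial DNA at -0.18 (4 of 13) and those of the citric acid cycle at -0.04 (7 of 16). All 6 adipocyte markers were higher in untreated iNOS KO tumors (median 2.27, sums of 12.96 to 66.5 CPM against 0.896 to 15.6 CPM) and all 6 fibroblast markers were lower (-1.37, sums of 637 to 865 CPM against 876 to 3974 CPM), while 8 melanoma markers stood at 0.07 and 9 leukocyte markers at -0.07. All 5 endothelial markers were lower too (median -0.26), with sums of 162, 196 and 176 CPM in iNOS KO and 215, 241 and 205 CPM in WT, which did not overlap. The part of these shifts in the difference of the respiratory family was not tested.

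In untreated tumors 68 of 78 tested members were higher in iNOS KO than in WT, with a median log2 fold change of 0.64 (1.56-fold). For 51 members all 3 iNOS KO tumors lay above all 3 WT tumors, and for 2 all lay below. Over all 30837 genes tested, 9.73% lay above in this way and 8% below, and the median log2 fold change was 0.49. Since this contrast chose the family, nothing is read from these counts. Without the high-background replicate 1 of iNOS KO, 55 members lay above and 3 below, the family's median was 0.63 and that of all genes was 0.00. For 20 members, among them Ndufa1, Ndufa3, Cox4i1, Cox7c, Uqcr10 and Uqcrh, the 3 untreated iNOS KO tumors also lay above all other 15 tumors of the experiment. Shares over all genes are not given for the counts of 55, 3 and 20, so nothing is read from these either.

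The members differed among themselves by role. Of complex I, the 7 subunits of the catalytic core, which together hold the flavin and the iron-sulfur clusters, stood at a median of 0.04 on the log2 scale (-0.14 to 0.55), with 2 of 7 non-overlapping above. The other 30 members named for complex I had a median of 0.64, with 22 above. The medians were 0.92 for complex III (6 of 8 above), 0.82 for complex IV (10 of 16) and 0.70 for complex V (11 of 17). These values describe the contrast that chose the members and are not tested.

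Among the accessory subunits of complex I, Ndufb6 (ENSMUSG00000071014.10, GRCm38 chr4:40270591-40279421, - strand) had 29.98, 49.7 and 14 CPM in the untreated iNOS KO tumors and 7.90, 7.69 and 10.5 CPM in the WT tumors, a log2 fold change of 1.84 ± 0.33 (SE). Replicate 2 was the highest and replicate 4 the lowest of the KO tumors, and all 3 lay above the WT tumors. Of the 659 exon bases of Ndufb6, 257 are shared with Smim27 on the opposite strand. Ndufs6, an accessory subunit with a zinc site, had 92.3, 85.8 and 73.4 CPM against 35.1, 44.3 and 38 CPM (1.10 ± 0.21). Ndufa7, Ndufc2 and Ndufb4 had log2 fold changes of 1.36, 1.32 and 1.3. By contrast Ndufs1 (ENSMUSG00000025968.16, GRCm38 chr1:63143596-63176833, - strand), the largest iron-sulfur subunit of the core, had 83.3, 123 and 95.2 CPM against 131, 98.8 and 103 CPM (-0.14 ± 0.20), and the groups overlapped. The core subunits Ndufs7 and Ndufv1 stood at -0.08 and 0.04. Ndufa10, an accessory subunit, was non-overlapping below, with 99.5, 104 and 122 CPM in iNOS KO and 144, 130 and 132 CPM in WT (-0.31 ± 0.19).

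In complex III the values ran from near 0 to over 1 on the log2 scale. Uqcr11 had 146, 150 and 116 CPM in untreated iNOS KO tumors and 48.6, 66.0 and 73.6 CPM in WT tumors (1.13 ± 0.22), and Uqcrh, the hinge protein next to cytochrome c1, had a log2 fold change of 1.08. Uqcrc1 (ENSMUSG00000025651.14, GRCm38 chr9:108936633-108949623, + strand), a large core protein of the complex, had 151, 159 and 184 CPM against 188, 167 and 182 CPM (-0.12 ± 0.17), with overlapping groups. Uqcrc2, the other large core protein, had 129, 114 and 124 CPM against 97.0, 88.6 and 97.9 CPM (0.37 ± 0.17), and here all iNOS KO tumors lay above the WT tumors. Uqcrfs1, the Rieske iron-sulfur subunit, was at 0.44.

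Complex IV held the largest difference. Cox7b (ENSMUSG00000031231.4, GRCm38 chrX:106015700-106022450, + strand), a small subunit, had 369, 494 and 206 CPM in untreated iNOS KO tumors and 69.6, 106 and 106 CPM in WT tumors (1.93 ± 0.30). All other day-7 tumors had 64.8 to 172 CPM of it, so the 3 untreated iNOS KO tumors stood apart from all 15. Ndufa4 (ENSMUSG00000029632.7, GRCm38 chr6:11900292-11907497, - strand), named for complex I but now known as a subunit of complex IV, had 579, 630 and 300 CPM against 129, 141 and 129 CPM (1.92 ± 0.32). Its paralog Ndufa4l2, known as a hypoxia-induced gene, went the other way, with 9.76, 13.8 and 13.6 CPM against 15.6, 35.9 and 29.1 CPM (-1.12 ± 0.37). Cox4i1, the ubiquitous form of subunit 4, had 307, 263 and 219 CPM against 119, 128 and 140 CPM (1.03 ± 0.20), and the small subunits Cox7c and Cox7a2 had log2 fold changes of 1.42 and 1.22. Cox5a, a subunit on the matrix side, was at 0.36.

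Members of complex V differed among themselves as well. Atp5b (ENSMUSG00000025393.12, GRCm38 chr10:128083273-128090391, + strand) had 797, 974 and 1025 CPM in untreated iNOS KO tumors and 1129, 907 and 993 CPM in WT tumors (-0.12 ± 0.22), and the α subunit Atp5a1 stood at 0.07. Atp5e, the ε subunit of the same catalytic part, had 81.5, 135 and 97.9 CPM against 37.7, 42.9 and 54.7 CPM (1.22 ± 0.30), without overlap. Atp5mpl (ENSMUSG00000021290.6, GRCm38 chr12:111961375-111966977, - strand), a small membrane protein of the synthase, had 349, 323 and 181 CPM against 102, 108 and 98.9 CPM (1.47 ± 0.30). Atp5k, the e subunit of the membrane part, was at 1.25. Atp5g2, a c-ring gene of the membrane part, had 38.1, 31.5 and 42.8 CPM against 27.9, 33.2 and 43.1 CPM (0.11 ± 0.23), and its groups overlapped.

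**Figure D2:**
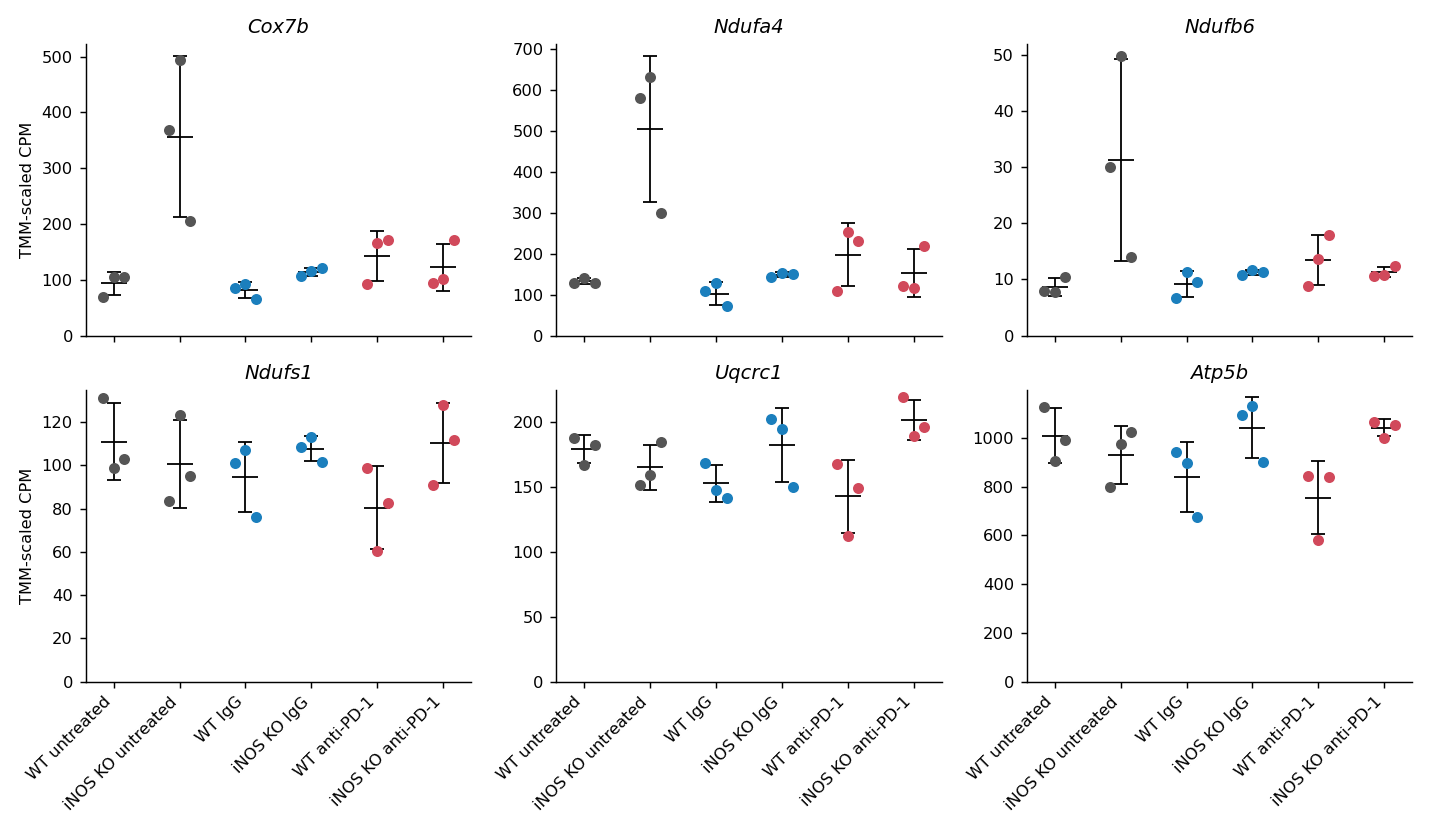
Level of 6 members in CPM in each day-7 tumor, by genotype and treatment. Points are tumors and bars the mean ± SD of 3. Cox7b, Ndufa4 and Ndufb6 are highest in untreated iNOS KO tumors (Cox7b 206 to 494 CPM), while Ndufs1, Uqcrc1 and Atp5b overlap between the genotypes there.

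This split ran along transcript length. The 53 tested members with transcripts under 1000 bases stood at a median of 0.85 on the log2 scale with 40 above, and the 25 longer ones had 0.40 with 11 above. Other protein-coding genes showed a gradient too. Among those with a mean of at least 10 CPM, the median log2 fold change in untreated tumors was 0.43 for the 472 genes with transcripts under 1000 bases, 0.04 from 1000 to under 2000, -0.13 from 2000 to under 4000 and -0.28 from 4000 bases. Over the tested members, Spearman's rho between fold change and transcript length was -0.53 in untreated tumors (n = 78 members, which share the same 6 libraries), and this is a description only. Whether length plays a part in the difference was not tested.

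**Figure D3:**
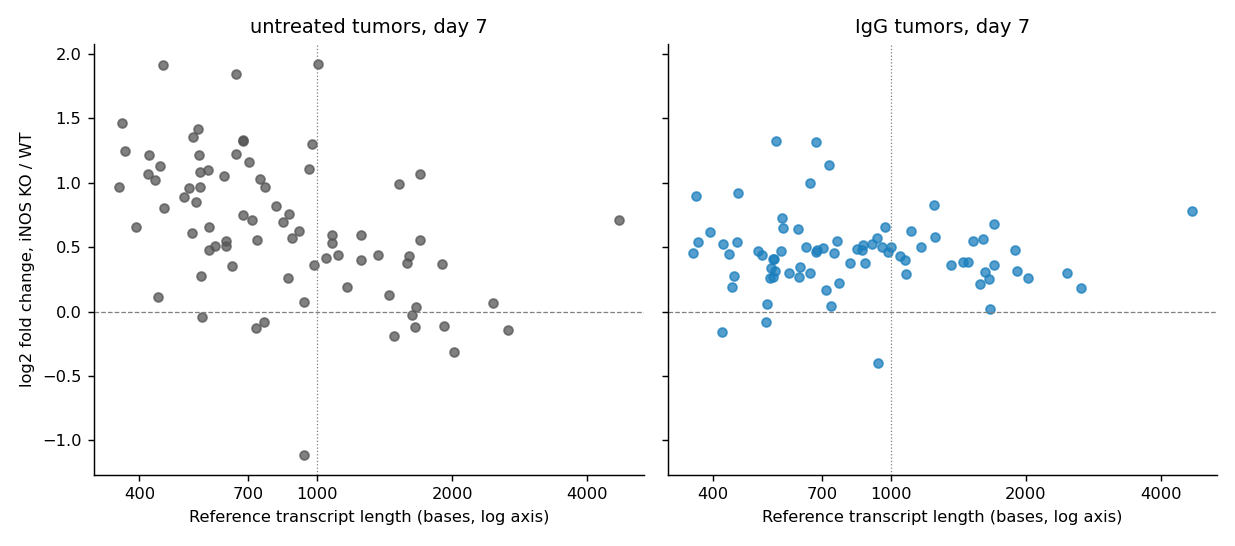
Log2 fold change of iNOS KO over WT for each member against its transcript length in bases (log axis, dotted line at 1000 bases), in untreated and IgG tumors of day 7. Shorter transcripts had the larger differences in untreated tumors (rho -0.53), and no such order was seen in IgG tumors (rho -0.05).

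The same contrast in IgG tumors used 6 libraries that did not choose the family. Of 78 members, 75 were higher in iNOS KO than in WT, with a median log2 fold change of 0.45 (1.37-fold), while the median over all genes was -0.14 and 35.5% of them were higher. For 49 members all 3 iNOS KO tumors lay above all 3 WT tumors and for 0 all lay below, against 5.7% and 6.43% of all genes. No member passed the edgeR quasi-likelihood test after adjustment over all 30837 genes, and neither did any other gene. Before adjustment 31 members passed 0.05 as higher and 0 as lower, against 2.15% and 4.12% of all genes, and the smallest adjusted p of a member was 0.626. DESeq2 called 1 member, Atp5g1 (adjusted p = 0.00857), among 28 genes (0.0547%). DESeq2 shares here and below are of the 51211 genes it gave a p-value, so they are not comparable with the edgeR shares.

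Complexes were closer to each other in IgG tumors than in untreated tumors. The median log2 fold changes were 0.41 for complex I (23 of 37 non-overlapping above), 0.38 for complex III (4 of 8), 0.51 for complex IV (12 of 16) and 0.49 for complex V (10 of 17). The catalytic core of complex I, near 0 in untreated tumors, was at 0.37 with 7 of 7 higher, next to 0.43 for the other 30. Short and long transcripts were at 0.46 and 0.39. Among other protein-coding genes the medians by length were 0.24, 0.12, 0.04 and 0.00 from the shortest to the longest class.

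**Figure D4:**
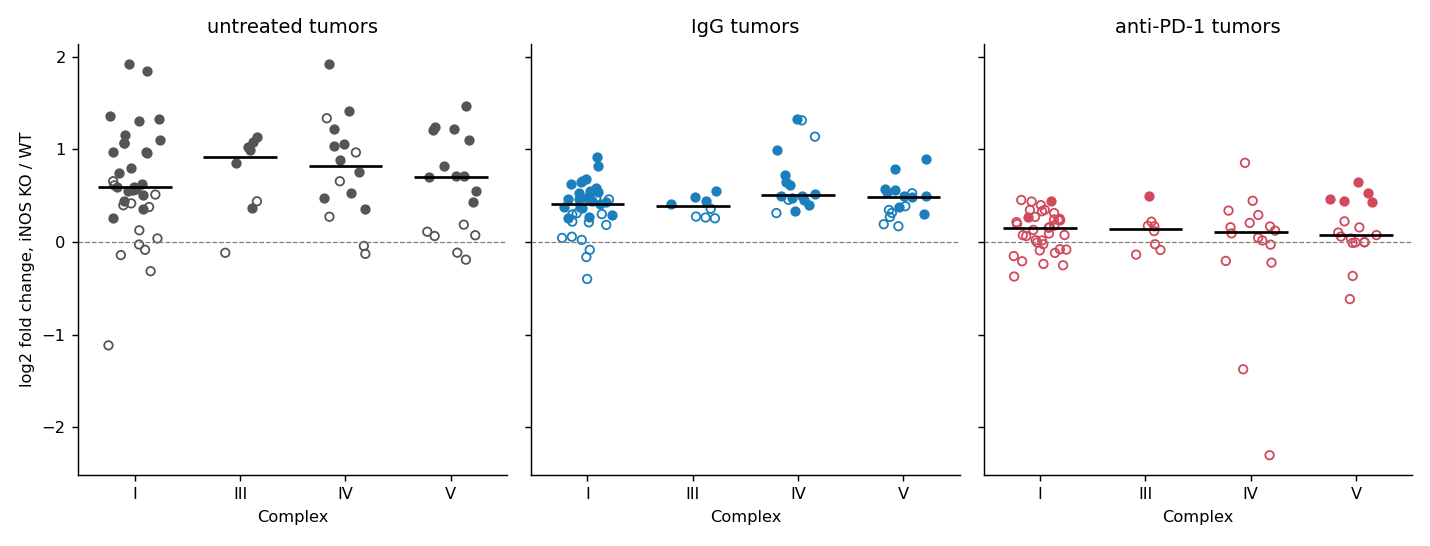
Log2 fold change of iNOS KO over WT for each tested member, by complex, in untreated, IgG and anti-PD-1 tumors. Filled points are members with all 3 iNOS KO tumors above all 3 WT tumors, and bars are medians (complex III 0.92 untreated, 0.38 IgG, 0.14 anti-PD-1).

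The member with the smallest p in IgG tumors was Atp5g1 (ENSMUSG00000006057.15, GRCm38 chr11:96068852-96075670, - strand), which encodes the c subunit of the rotor ring of the ATP synthase. It had 74.2, 76.9 and 58.8 CPM in iNOS KO and 44.1, 35.3 and 42.5 CPM in WT, with a log2 fold change of 0.78 ± 0.17 (adjusted p = 0.626, edgeR). The untreated values were 89.0, 124 and 88.1 CPM against 65.3, 55.7 and 63.1 CPM, also without overlap. That contrast chose the family, so it adds no support to the IgG values. Ndufc1, an accessory subunit of complex I, had 37.7, 44.5 and 40.5 CPM against 27.4, 21.4 and 20.4 CPM (0.82 ± 0.20, adjusted p = 0.626). Ndufs7, a core iron-sulfur subunit whose values overlapped between the untreated groups, had 104, 102 and 98.5 CPM against 66.8, 66.4 and 74.4 CPM (0.55 ± 0.16, adjusted p = 0.626). Cox7a2 had 96.1, 107 and 95.2 CPM against 49.8, 40.9 and 59.1 CPM (0.995 ± 0.31, adjusted p = 0.626).

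Cox7b, Ndufa4 and Ndufb6, the members with the largest differences in untreated tumors, had smaller ones in IgG tumors. Cox7b had 107, 116 and 121 CPM in IgG iNOS KO and 85.9, 92.4 and 64.8 CPM in IgG WT (0.50 ± 0.29, adjusted p = 0.626). Ndufa4 had 143, 153 and 150 CPM against 108, 128 and 71.3 CPM (0.54 ± 0.31, adjusted p = 0.626), and both genes were still non-overlapping. Ndufb6 had 10.8, 11.7 and 11.2 CPM against 6.66, 11.3 and 9.47 CPM (0.30 ± 0.33, adjusted p = 0.814) and overlapped. The member with the smallest p among those lower was Ndufa4l2, with 16.3, 29.7 and 28.6 CPM against 30.9, 27.6 and 39.9 CPM (-0.40 ± 0.36, adjusted p = 0.752).

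Other gene lists had medians away from 0 in the IgG contrast as well. Mitochondrial ribosomal proteins stood at a median of 0.28 (74 of 77 higher, 32 non-overlapping above), cytosolic ribosomal proteins 0.24 (86 of 99, 40 above), the 13 protein-coding genes of mitochondrial DNA 0.26 (11 of 13), 16 genes of pyruvate dehydrogenase and the citric acid cycle 0.23 (15 of 16), 7 genes of complex II and other chain components outside the name rule 0.29 (7 of 7) and assembly factors 0.18 (35 of 45). The 10 transcriptional regulators of mitochondrial genes were at 0.00 (5 of 10 higher). None of these genes passed the adjusted test. Markers of other cells also differed. All 8 melanoma genes were higher in IgG iNOS KO tumors (median 0.32), and all 9 leukocyte genes were lower (-0.72), with leukocyte sums of 243, 355 and 365 CPM in iNOS KO and 313, 428 and 947 CPM in WT. All 6 fibroblast markers were lower in iNOS KO (median -0.68, sums of 2224 to 3706 CPM against 3012 to 7559 CPM), as were all 6 adipocyte markers (-0.56, sums of 3.56 to 40.3 CPM against 7.93 to 78.7 CPM). All 12 muscle markers were higher (1.53, sums of 18.6 to 1314 CPM against 21.3 to 437 CPM), as were all 6 keratinocyte markers (3.52, sums of 0.127 to 56.2 CPM against 0.513 to 4.09 CPM). Of 5 endothelial markers 3 were higher (0.04). The sums of these lists overlapped between the genotypes. Their part in the difference of the family was not tested.

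After anti-PD-1 the median genotype difference was smaller than in untreated or IgG tumors. Of 78 members 53 were higher in iNOS KO, with a median log2 fold change of 0.12 against -0.91 over all genes. Other protein-coding genes of at least 10 CPM had medians of 0.11, 0.21, 0.25 and 0.28, from the shortest to the longest class. Non-overlap was seen above for 8 members and below for 1, against 5.33% and 17% of all genes. No member and no gene passed the adjusted test in edgeR, where 8 members passed 0.05 before adjustment as higher and 0 as lower (5.69% and 26.6% of all genes). DESeq2 called 3230 genes (6.31%), among them the members Atp5a1 and Uqcrc1. Both high-background WT libraries belong to this contrast. Without them the family's median was 0.34 with 73 of 78 higher, a value that sets the 3 iNOS KO tumors against 1 WT tumor, replicate 2. Leaving out the high replicate 3 of iNOS KO instead put the median at -0.03, with 33 of 79 higher. The 16 genes of pyruvate dehydrogenase and the citric acid cycle stood at 0.37 in this contrast with 15 higher, and cytosolic ribosomal proteins at 0.03 with 50 of 99 higher.

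The members with the smallest p after anti-PD-1 were long-transcript subunits, whose WT values were low in replicate 3, a high-background library. Atp5a1 had 532, 647 and 592 CPM in iNOS KO and 471, 263 and 396 CPM in WT (0.65 ± 0.20, adjusted p = 0.128, edgeR). Uqcrc1 had 219, 189 and 196 CPM against 167, 112 and 149 CPM (0.50 ± 0.17, adjusted p = 0.129). Atp5e, the ε subunit of the ATP synthase and a short member, pointed the other way, with 51.9, 28.2 and 68.0 CPM against 40.7, 94.2 and 92.5 CPM (-0.62 ± 0.30, adjusted p = 0.159). The 2 high WT values of Atp5e were those of the high-background libraries, and without them its log2 fold change, against WT replicate 2 alone, was 0.32. Cox7b showed the same tumors high, at 165 and 172 CPM in WT replicates 3 and 4 and 91.6 CPM in replicate 2.

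The question whether anti-PD-1 moves these genes relative to IgG was addressed within each genotype at day 7. In WT mice 68 of 78 members were higher after anti-PD-1, with a median log2 fold change of 0.44 against 0.68 over all genes. Other protein-coding genes of at least 10 CPM had medians of 0.23, -0.04, -0.20 and -0.32, from the shortest to the longest class. For 37 members the anti-PD-1 tumors were non-overlapping above and for 0 below (9.02% and 2.85% of all genes), and 32 passed 0.05 before adjustment as higher and 1 as lower (10.6% and 5.75%). No member and no gene passed the adjusted test in edgeR, and DESeq2 called 8 members among 157 genes (0.307%), namely Ndufc1, Ndufb2, Ndufs4, Ndufb11, Cox7a2, Uqcrq, Atp5g1 and Atp5mpl. Atp5mpl had 88.0, 160 and 172 CPM after anti-PD-1 and 58.6, 51.1 and 64.8 CPM after IgG (1.27 ± 0.30, adjusted p = 0.305, edgeR). Ndufa4l2 had 32, 10.4 and 12.6 CPM against 30.9, 27.6 and 39.9 CPM (-0.83 ± 0.37, adjusted p = 0.305). In both genes replicates 3 and 4, the high-background libraries, stood apart from replicate 2. Cytosolic ribosomal proteins stood at 0.42 here (83 of 99 higher), and all 9 leukocyte markers were lower after anti-PD-1 (median -0.94), with sums of 471, 135 and 140.5 CPM against 313, 428 and 947 CPM. Their part was not tested. Without the high-background libraries the family's median was 0.19, with 69 of 78 higher, which rests on 1 anti-PD-1 tumor, replicate 2.

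In iNOS KO mice the anti-PD-1 and IgG tumors were nearer to each other. Of 78 members 55 were higher after anti-PD-1, the median was 0.10, and 2 were non-overlapping above and 1 below (3.32% and 3.77% of all genes). Other protein-coding genes of at least 10 CPM and under 1000 bases also had a median of 0.10, with 66.3% higher. No member passed the adjusted test in edgeR, 0 passed 0.05 before adjustment in either direction (0.85% of all genes higher and 1.09% lower), and DESeq2 called 0 members. Uqcr11 had 92.1, 109 and 88.0 CPM after anti-PD-1 and 81.2, 79.9 and 54.9 CPM after IgG (0.42 ± 0.22, adjusted p = 1.0). The interaction term tested the difference between the genotypes in their response. Its median was -0.31 over the members with 13 of 78 above 0, next to -0.47 over all genes. Other protein-coding genes of at least 10 CPM had medians of -0.13, 0.11, 0.22 and 0.29, from the shortest to the longest class. The term uses the high-background WT anti-PD-1 libraries. No member passed the adjusted test in edgeR, 4 passed 0.05 before adjustment as lower and 0 as higher (6.44% and 0.973% of all genes), and DESeq2 called 0 members. Atp5e had the smallest p of the interaction (-1.14 ± 0.43, adjusted p = 0.67).

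Against untreated tumors of the same genotype, which took part in choosing the family, the treated iNOS KO tumors were lower, and these values are descriptions. The family's median was -0.46 for IgG with 49 members non-overlapping below and 4 above (9.53% and 8.02% of all genes). It was -0.45 for anti-PD-1 with 24 below and 1 above (8.46% and 5.56%). In WT mice it was -0.28 for IgG with 29 below and 0 above (6.05% and 6.79%). For anti-PD-1 in WT mice it was 0.11 with 7 below and 2 above (7.61% and 16.3%). The medians over all genes were -0.45, -0.44, 0.14 and 0.96 in the same order. Other protein-coding genes of at least 10 CPM and under 1000 bases had medians of -0.37, -0.26, -0.16 and 0.05. Those from 4000 bases had 0.24, 0.21, -0.04 and -0.34. The contrasts share the untreated tumors.

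The first experiment followed WT tumors from 0 hours to day 3. The summed level was 5363, 9792 and 8414 CPM at 0 hours (mean 7856 ± 2266, SD, n = 3), and 9112 ± 2189 CPM in untreated, 6933 ± 1383 CPM in IgG and 7975 ± 960 CPM in anti-PD-1 tumors at 6 hours. On day 1 the means were 7367 ± 751, 6236 ± 561 and 6772 ± 1533 CPM in untreated, IgG and anti-PD-1 tumors, and on day 3 they were 8645 ± 940, 7807 ± 1162 and 8649 ± 870 CPM. At each of these 3 times the IgG group had the lowest mean, and its range overlapped that of the other groups.

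The largest shift was at 6 hours, where 3 of 79 members were higher after IgG than in untreated tumors, with a median log2 fold change of -0.47 against 0.10 over all genes. Non-overlap was seen below for 8 and above for 0 members (2.31% and 5.87% of all genes), and before adjustment 23 had p under 0.05 as lower and 0 as higher (1.89% and 3.53%). No member and no gene passed the adjusted test in edgeR, and DESeq2 called 0 members among 10 genes. The smallest p was that of Cox7a2l, which is known to link complexes III and IV into supercomplexes, with 40.7, 42.2 and 22.1 CPM after IgG and 47.9, 51.7 and 63.0 CPM untreated (-0.63 ± 0.18, adjusted p = 0.76). Between anti-PD-1 and IgG at 6 hours 68 of 79 members were higher after anti-PD-1, the median was 0.26, and 4 were non-overlapping above and 2 below (2.13% and 5.57% of all genes). No member passed the adjusted test there in edgeR, 4 passed 0.05 before adjustment as higher and 0 as lower (0.778% and 3.6%), and DESeq2 called 0 members. Uqcrb, a small subunit of complex III, had 121, 111 and 82.5 CPM after anti-PD-1 and 82.2, 90.1 and 48.4 CPM after IgG (0.51 ± 0.20, adjusted p = 0.967).

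Much of the 6-hour difference lay in replicate 6 of IgG. For 38 of 75 members with a median of at least 1 CPM this library held the lowest value of the 30 tumors, and 30 were more than 2-fold below the median of the others on the log2(CPM + 0.5) scale. It also had the lowest depth of the 30 (25574203 counts) and a background of 256 CPM (median 82.1). Its mitochondrial ribosomal protein sum was the lowest too, at 1455 CPM, and its cytosolic one was 15485 CPM (median 20850). The share of all genes that were this low in the library is not given. Atp5g3, a c-ring gene, had 32.4 CPM there and 222 to 436 CPM elsewhere. Ndufa1, an accessory subunit of complex I, had 4.63 CPM against 31.4 to 68.7 CPM. Cox8a had 30.3 CPM against 105 to 341 CPM, and Cox6b1, the common form of a subunit facing the intermembrane space, had 11.8 CPM against 63.4 to 124 CPM. Other members were at ordinary levels in the same library, such as Atp5c1, the γ subunit of the ATP synthase, with 537 CPM (median of the others 415), Ndufs1 with 126 (100) and Cox6c with 278 (275). Without this library the median of IgG over untreated was -0.24 with 8 members lower at an unadjusted p under 0.05, and that of anti-PD-1 over IgG was 0.08 with 55 of 79 higher.

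Transcript length also ordered the members at 6 hours. Spearman's rho between length and the log2 fold change was 0.62 for IgG over untreated and -0.57 for anti-PD-1 over IgG (n = 79 members, with the IgG libraries in both). For other protein-coding genes of at least 10 CPM, IgG over untreated had a median of -0.33 under 1000 bases (461 genes), then -0.18, -0.07 and 0.03 in the longer classes. Anti-PD-1 over IgG had medians of 0.21, 0.09, 0.03 and -0.03 in these classes. In IgG over untreated, cytosolic and mitochondrial ribosomal proteins stood at -0.33 and -0.36 and the genes of mitochondrial DNA at -0.65. The part of length or of these lists in the difference was not tested.

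On days 1 and 3 the medians of the family lay closer to 0. After IgG 8 of 79 members were higher than in untreated tumors on day 1, with a median of -0.22. Non-overlap was seen below for 14 and above for 0 (6.36% and 6.25% of all genes), and before adjustment 1 passed 0.05 as higher and 0 as lower (4.01% and 1.42%). On day 3 12 members were higher after IgG than in untreated tumors, with a median of -0.11, 4 non-overlapping below and 1 above (4.67% and 6.53%), and 0 passed 0.05 before adjustment (1.28% of all genes as lower and 1.36% as higher). After anti-PD-1 63 members were higher than after IgG on day 1, with a median of 0.14, 2 non-overlapping above and 0 below (2.77% and 3.72%), and 0 passed 0.05 before adjustment (1.1% and 2.53%). On day 3 72 were higher, with a median of 0.14, 5 above and 0 below (3.5% and 4.83%), and again 0 passed (0.518% and 1.62%). In the same order, other protein-coding genes of at least 10 CPM and under 1000 bases had medians of -0.17, -0.07, 0.07 and 0.14. Of them 26.7%, 35.1%, 63.3% and 80.7% were higher. The comparisons of a day share its IgG libraries. Leaving out single tumors, the median of anti-PD-1 over IgG ran from -0.05 to 0.19 on day 1, the lowest without anti-PD-1 replicate 4, and from 0.03 to 0.22 on day 3, the lowest without IgG replicate 3.

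Untreated tumors were also compared with those of 0 hours. At 6 hours 71 members were higher, with a median of 0.24, 2 non-overlapping above and 0 below (1.89% and 3.56% of all genes), and before adjustment 3 passed 0.05 as higher and 0 as lower (1.11% and 5.81%). On day 1 28 were higher, with a median of -0.05, 0 above and 2 below (3.77% and 4.28%), and 0 passed as higher and 1 as lower (2.58% and 4.27%). On day 3 65 were higher, with a median of 0.14, 3 above and 2 below (3.4% and 4.32%), and 0 passed in either direction (2.2% and 4.69%). At 6 hours, day 1 and day 3, other protein-coding genes of at least 10 CPM and under 1000 bases had medians of 0.20, -0.05 and 0.09. Of them 80.9%, 41.4% and 67.2% were higher. Without replicate 3 of 0 hours the family's medians were -0.19 on day 1 and -0.01 on day 3. No member passed the adjusted test of edgeR in any comparison of day 1 or 3 or against 0 hours, and DESeq2 called 0 members there.

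The members with the smallest p in these comparisons were mostly accessory subunits or isoforms at low levels. After IgG on day 3, Ndufs5 was lower than in untreated tumors (log2 fold change -0.64 ± 0.34, adjusted p = 1.0, edgeR) and Ndufa4l2 higher (0.74 ± 0.43, adjusted p = 1.0). Ndufs1 was lower after IgG on day 1, at 71.6, 75.3 and 79.4 CPM against 92.0, 103 and 97.3 CPM (-0.37 ± 0.19, adjusted p = 0.859), with no overlap. Between anti-PD-1 and IgG the smallest p of the higher members were those of Ndufb7 on day 1 (0.25 ± 0.16, adjusted p = 1.0) and Ndufa7 on day 3 (0.32 ± 0.24, adjusted p = 1.0), and at 6 hours that of the lower members was Ndufs3 (-0.26 ± 0.18, adjusted p = 1.0). Against 0 hours, Uqcrh stood at 0.65 ± 0.24 at 6 hours (adjusted p = 0.592) and 0.47 ± 0.24 on day 3 (adjusted p = 0.699). Its values were 67.0, 91.7 and 67.4 CPM at 0 hours and 94.4, 128 and 132 CPM at 6 hours, without overlap. Ndufv3, an accessory subunit, stood at 0.38 ± 0.23 on day 1 (adjusted p = 0.752).

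Tissue-specific isoforms of complex IV stood apart from the rest of the family. Cox6a2 (ENSMUSG00000030785.8, GRCm38 chr7:128205435-128206387, - strand) and Cox8b (ENSMUSG00000025488.9, GRCm38 chr7:140898945-140900446, - strand) are the forms of heart and skeletal muscle. In the first experiment Cox6a2 ranged from 0 to 55.5 CPM with a median of 0.711 CPM, and its highest values were 55.5 CPM in replicate 6 of day 1 IgG, and 39.7 and 31.6 CPM in replicates 3 and 2 of 0 hours. The summed level of 12 muscle markers was 19084, 15811 and 8508 CPM in these 3 tumors, within 10.1 to 19084 CPM over all 30. Its ubiquitous counterpart, Cox6a1, had 154, 111 and 238 CPM in the same tumors. Replicate 3 of 0 hours also had the highest keratinocyte (3760 CPM), adipocyte (414 CPM) and brown adipocyte (5.48 CPM) marker sums of the 30. Whether the isoforms follow those markers was not tested.

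Across the 30 tumors Cox6a2 followed the muscle markers on a log2(CPM + 0.5) scale, with Pearson's r = 0.94 (permutation p = 1e-05, the smallest the 100000 permutations could give, adjusted 4e-05) and Spearman's rho = 0.76 (p = 2e-05, adjusted 0.00012). Without the 2 tumors farthest from the median of the markers r was 0.92, and with the group means removed it was 0.94. For Cox8b r was 0.86 (permutation p = 1e-05, adjusted 4e-05), rho was 0.70 (p = 3e-05, adjusted 0.00012), and r was 0.80 without the farthest 2. For Cox6a1 r was 0.03 (permutation p = 0.878, adjusted 0.941) and 0.34 without the farthest 2. Cox7a1, also known as a muscle form, had r = 0.41 (permutation p = 0.0244, adjusted 0.0399) and rho = 0.41 (p = 0.0244, adjusted 0.0391). Its r was 0.46 with the group means removed and dropped to 0.23 without the farthest 2, so the size of r depended on those tumors.

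In the second experiment the muscle markers covered a narrower range, 18.6 to 1314 CPM over the 18 tumors. There r was 0.60 for Cox6a2 (permutation p = 0.00944, adjusted 0.0252), 0.53 for Cox8b (permutation p = 0.0249, adjusted 0.0399), -0.07 for Cox7a1 (permutation p = 0.776, adjusted 0.941) and -0.02 for Cox6a1 (permutation p = 0.941, adjusted 0.941). Spearman's rho was 0.61, 0.59, 0.02 and 0.04 in the same order (permutation p = 0.00903, 0.0114, 0.929 and 0.869, adjusted 0.0228, 0.0228, 0.929 and 0.929). Without the farthest 2 tumors r was 0.46 for Cox6a2 and 0.40 for Cox8b. In all, 8 relations were computed. The change of Cox6a2 from untreated to IgG on day 1, a log2 fold change of 5.63 ± 2.12 (adjusted p = 0.859, edgeR), came from 0.694, 0.727 and 55.5 CPM after IgG against 0.377, 0.768 and 0 CPM untreated. Only replicate 6, the tumor with the most muscle marker RNA, lay above the untreated range. Where Cox6a2 or Cox8b had the smallest p of other comparisons, the spread was as wide, for example -6.07 ± 2.16 for Cox6a2 in untreated tumors of day 1 against 0 hours (adjusted p = 0.544) and -3.92 ± 2.23 for Cox8b after anti-PD-1 against IgG on day 3 (adjusted p = 1.0).

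The other rare isoforms were far below their common paralogs in the day-7 tumors. Cox4i2, known from lung and hypoxia, had 0.422 to 3.97 CPM over the 18 tumors, next to 92.6 to 307 CPM of Cox4i1. Cox6b2, a testis form, had 0 to 0.984 CPM, and its log2 fold change of -2.47 ± 1.86 between anti-PD-1 and IgG in iNOS KO mice (adjusted p = 1.0, edgeR) rests on at most 22 counts a library.

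**Figure D5:**
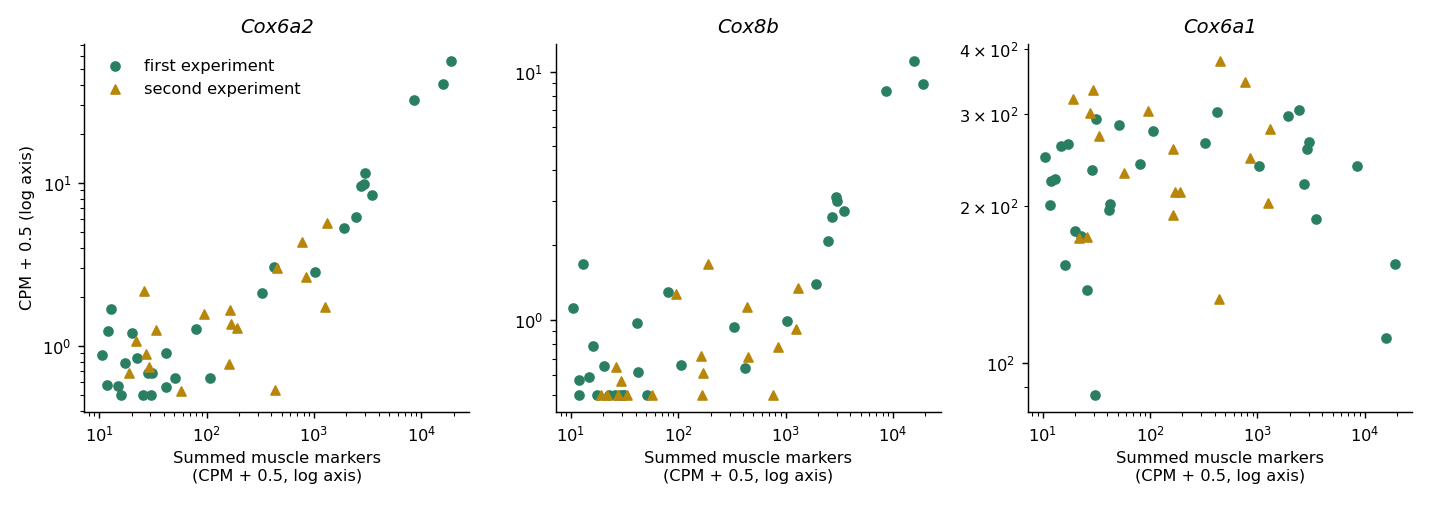
Level of Cox6a2, Cox8b and Cox6a1 against the summed level of 12 muscle markers, both in CPM on log axes, each point a tumor. Cox6a2 and Cox8b rise with the markers (r = 0.94 and 0.86 over the 30 tumors of the first experiment), while the ubiquitous Cox6a1 does not (r = 0.03).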

How the data were processed

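RNA of 48 tumors was sequenced, 3 in each of 16 conditions. According to the methods of the study, the libraries kept strand, paired reads were trimmed with cutadapt 1.8.1 and mapped to mm10 with STAR 2.7.7a, and RSEM 1.3.0 with GENCODE vM21 gave the gene values. The deposited table, whose name points to another counting program, holds whole-number counts per gene and library, which the authors did not normalize. How reads shared with the 12 non-coding copies of these genes, mostly processed pseudogenes, were assigned is not given in the sources used here. Ndufb6 shares exon bases with a gene on the other strand, and whether counting used strand is not given either. Title day 0 was taken as 6 hours and day 7 came from the study's paper.

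The experiments were fitted separately in edgeR 4.0.16 (R 4.3.3), using TMM factors, filterByExpr at a minimum count of 10, a group-means design and the quasi-likelihood test. P-values were adjusted by Benjamini-Hochberg over all 26848 genes of the first experiment or 30837 of the second, with a threshold of 0.05. CPM values use the TMM library sizes, and standard errors are the log2 fold change divided by the square root of F. Transcript length is that of 1 principal transcript a gene in the GENCODE annotation. Correlations used a pseudocount of 0.5 CPM. Counting precision was set by libraries of 11625862 to 47687872 counts. No library was a copy of another of its condition, as the 48 pairs of replicates differed by a chi-square of 16.2 to 411 per gene. P-values measure the spread between tumors. DESeq2 1.42.0 was an alternative. For each comparison the text names the member with the smallest p in each direction, in the untreated contrast the 10 largest non-overlapping differences in each direction, core subunits of each complex, tissue isoforms with their paralogs, and the highest and lowest levels. Other members were picked after their values were seen. The members and gene lists were chosen with earlier results of these data known.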

Additional observations from a re-analysis of the deposited data

How the results depend on the processing

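Comparisons kept their reading in 355 recomputed values and moved in 16, over DESeq2 size factors, no filter on low counts, a replicate block, a fit of only the groups compared, the DESeq2 Wald test, a background covariate, the high-background libraries left out and single replicates left out. Without the filter 1 member was called for day 1 IgG against untreated, 1 for untreated day 1 against 0 hours, 4 for iNOS KO against WT after IgG and 7 for WT anti-PD-1 against IgG. The DESeq2 Wald test called 1, 2 and 8 members for iNOS KO against WT after IgG and after anti-PD-1 and for WT anti-PD-1 against IgG. Without the high-background libraries, which leaves WT anti-PD-1 with replicate 2 alone, assumed to vary like the other groups, the family's median was 0.34 for iNOS KO against WT after anti-PD-1, 0.19 for WT anti-PD-1 against IgG and -0.15 for the interaction. Leaving out single replicates gave 0 to 3 called members for iNOS KO against WT after anti-PD-1 and 0 to 20 for WT anti-PD-1 against IgG. The 3 and the 20 were both without WT anti-PD-1 replicate 2, which leaves only high-background libraries in that group. The medians then ran from -0.03 to 0.26 and from 0.21 to 0.51 in these comparisons. They ran from -0.12 to 0.20 for iNOS KO anti-PD-1 against IgG and from -0.53 to -0.13 for the interaction. How many of all genes were called without the filter or without single replicates is not given. Nothing about the family is read from those counts of called members. DESeq2 size factors moved the median of all genes by -0.11 for iNOS KO against WT after anti-PD-1, by 0.10 for WT anti-PD-1 against IgG and by 0.12 for WT anti-PD-1 against untreated. Of single members, Cox8c at 6 hours, IgG against untreated, turned to -0.55 with the background covariate and was at 0.0 without IgG replicate 6, which held all of its IgG counts (0.0 to 5.11 over single replicates left out). Cox6a2 on day 1, anti-PD-1 against IgG, turned without IgG replicate 6 (2.29, within -8.73 to 2.29), and Atp5e after anti-PD-1 turned without the high-background libraries (0.32, against 1 WT tumor). Causes were not tested. Replicate numbers did not pair the tumors (median correlation of same-numbered deviations -0.053 over 65 pairs and -0.025 over 36), and with a replicate block the median was -0.36 for IgG against untreated at 6 hours and 0.45 for iNOS KO against WT after IgG, with 0 members called in each. Depth limits the isoforms near 0. The spread between 3 tumors, the high-background libraries and the unknown assignment of shared reads are limits of the other values.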
